A study of Homo sapiens with 6 samples.

Results

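The 10 genes described here are transcriptional outputs of the ERK branch of MAPK signalling: DUSP4, DUSP5, DUSP6, SPRY2, SPRY4, SPRED1, ERRFI1, ETV4, ETV5 and PHLDA1. They were chosen by name, as rows of the deposited count table whose Ensembl identifier carries one of these symbols, and all 10 were found among its 57820 genes. All 10 also passed the filter on low counts, which left 16396 genes for testing. The cells were Cal27, an established human tongue squamous carcinoma line. One group carried a lentiviral construct for overexpression of cornulin (CRNN), a protein of differentiating squamous epithelium. The second carried a GFP control vector on the same kind of virus, and the third was untreated, labelled wild type. Each group had 2 replicates and all 6 libraries bear the same batch number. Transduced cells received 8 µg/ml polybrene and were harvested after 48 hours. The labels give neither polybrene nor a harvest time for the untreated cells, so comparisons with them cannot tell these apart from transduction. Nothing in the labels says whether transduced cells were selected or sorted, so cells without the construct may be among them.

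When a growth factor binds its receptor, the signal runs through RAS, RAF and MEK to the kinase ERK, which enters the nucleus and switches on a set of short-lived transcripts. Many of these encode brakes on the same route, so their level is widely read as a record of recent ERK activity. In squamous carcinoma cells the epidermal growth factor receptor is the best known input. In bulk RNA, fewer cells with a transcript and less of it per cell cannot be told apart.

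Sequencing depth lay between 11817105 and 28041227 counts per library. The unit of level is CPM, with library sizes adjusted by TMM, and 3 counts are worth 0.115 to 0.239 CPM depending on the library. CRNN itself was measured at 964 and 1028 CPM after CRNN virus, at 3.06 and 2.55 CPM after GFP virus and at 3.51 and 2.08 CPM without virus. Squamous epithelial markers (7 of 7 tested) summed to between 3725 and 5790 CPM, with KRT5 at 1902 to 4270 CPM. Single markers were less even than the sum. In untreated replicate 1 KRT17 had 1771 CPM and CDH1 281 CPM, against 67.6 to 182 and 73.3 to 116 CPM in the other 5 libraries. KRT5 and TP63 were not highest there. Of 6 fibroblast, 5 immune and 4 endothelial markers, 5, 2 and 2 passed the filter. Their sums were 5.21 and 5.22 CPM in CRNN, 6.44 and 9.10 CPM in GFP and 5.50 and 3.96 CPM in untreated libraries for fibroblasts, and stayed under 9 CPM in every library for immune cells. The endothelial sum was 53.0 CPM in untreated replicate 1, of which CDH5, named after its values were seen, made up 49.9 CPM, and between 8.10 and 14.0 CPM in the other 5 libraries. In a principal component analysis of 11729 genes, untreated replicate 1 scored 67.4 on component 1 (51.0% of the variance) and the others -21.2 to -8.39. On component 2, with 25.9%, GFP replicate 1 lay at 46.9 and the others between -19.4 and -3.39. Both libraries therefore stood apart over these genes, from which the 10 were not removed. The comparisons of the 10 genes and of the gene lists are given with and without these libraries. The part that these library differences play in the results was not tested.

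The 10 genes differed by less than 2-fold between the CRNN libraries. Most differed by at least 2-fold between the replicates of each control group. Their mean level was low in both CRNN libraries and about as low in GFP replicate 2. The lowest library was GFP replicate 2 for DUSP5, DUSP6, SPRY2 and ETV4, and untreated replicate 1 for ETV5. Of the 10 genes, 8 had their highest CPM in untreated replicate 1, where 27.1% of all tested genes did. The other 2, ETV4 and ETV5, were highest in GFP replicate 1, as were 23.3% of all genes. None was highest in another library, where all genes were highest in 8.24% and 13.9% of cases for the CRNN libraries, 19.3% for GFP replicate 2 and 8.17% for untreated replicate 2. As the mean over the genes of log2 CPM centred per gene, the CRNN libraries stood at -0.57 and -0.71, with 0.82 and -0.77 in the GFP libraries, and 1.45 and -0.22 in the untreated libraries. GFP replicate 2 thus lay with the CRNN pair, and untreated replicate 2 lay between that pair and the high libraries.

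**Figure D1:**
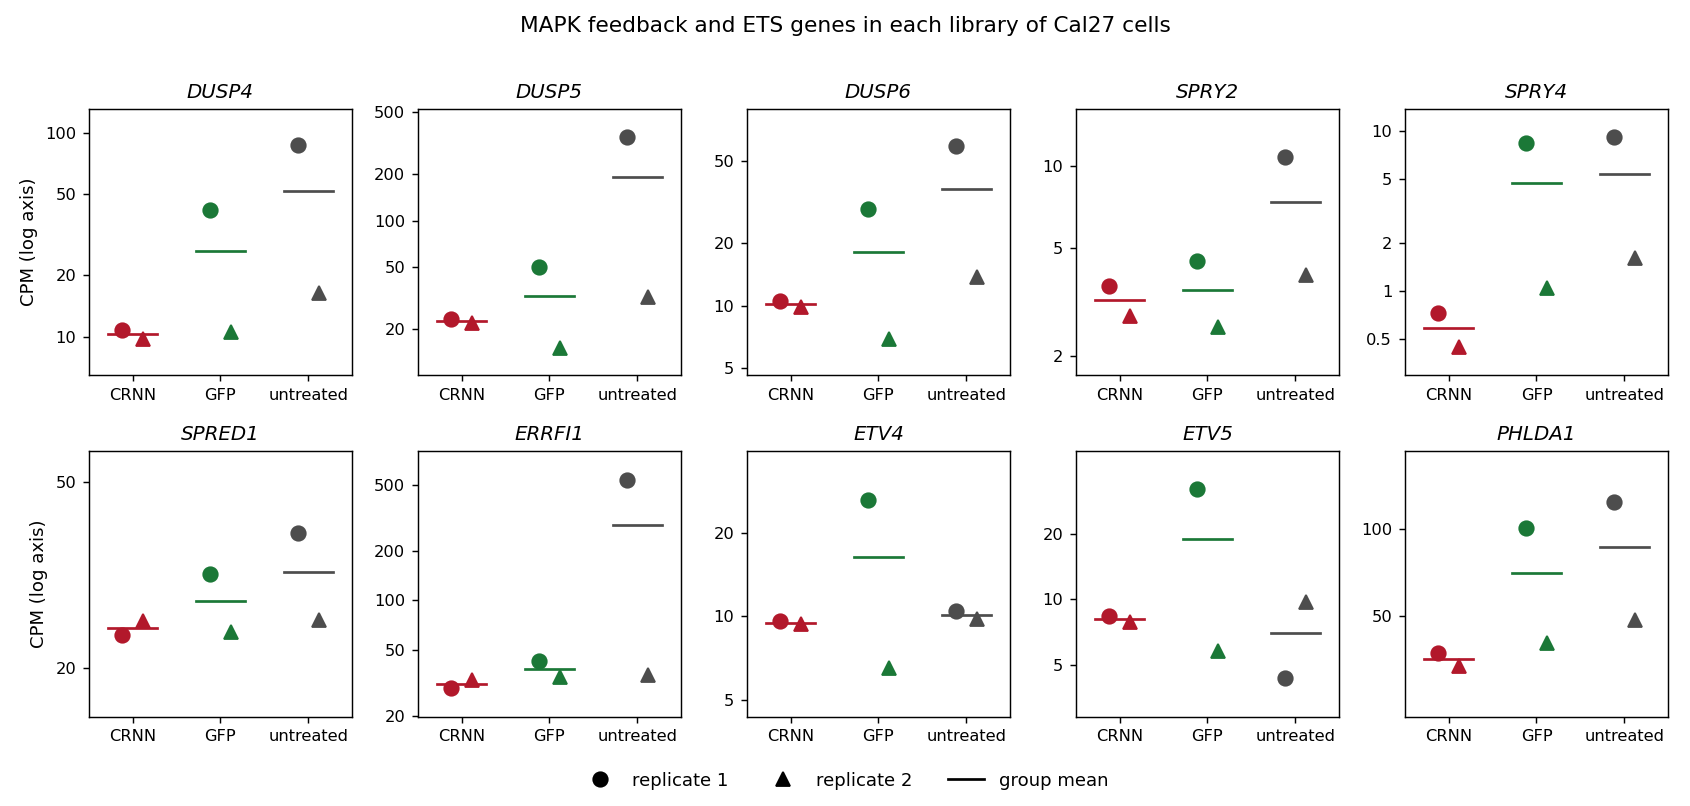
CPM (log axis) of each of the 10 genes in the 6 libraries. Circles are replicate 1, triangles replicate 2 and lines the group means (n = 2). The CRNN replicates lie close together, while replicate 1 of GFP and of untreated cells lies well above replicate 2 for most genes; ETV4 and ETV5 are not high in untreated replicate 1.

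The DUSP genes encode dual-specificity phosphatases that remove the activating phosphates from MAP kinases. DUSP6 is the cytoplasmic phosphatase of ERK, DUSP5 its nuclear counterpart, and DUSP4 a nuclear enzyme of broader range. DUSP4 (ENSG00000120875.4; GRCh38 chromosome 8, 29333064 to 29350684, minus strand) had 10.8 and 9.72 CPM in CRNN libraries, 41.9 and 10.5 CPM in GFP libraries and 87.1 and 16.4 CPM in untreated libraries. DUSP5 (ENSG00000138166.5; chromosome 10, 110497907 to 110511533, plus strand) had 23.4 and 21.98 CPM in CRNN, 50.7 and 15.2 CPM in GFP and 347 and 32.1 CPM in untreated libraries. DUSP6 (ENSG00000139318.7; chromosome 12, 89347235 to 89352501, minus strand) had 10.6 and 9.85 CPM in CRNN, 29.3 and 6.94 CPM in GFP and 58.9 and 13.8 CPM in untreated libraries. For all 3 phosphatases both CRNN libraries lay below both untreated libraries. Against the GFP pair they lay within its range for DUSP5 and DUSP6, and for DUSP4 one CRNN library lay just below GFP replicate 2. DUSP5 has an annotated processed pseudogene, DUSP5P1, which drew 1 to 12 counts per library, and reads that match both could not be separated here.

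The Sprouty proteins SPRY2 and SPRY4 and the related SPRED1 are membrane-associated inhibitors that act between receptor and RAF; SPRED1 brings the RAS-inactivating protein NF1 to the membrane. SPRY2 (ENSG00000136158.6; chromosome 13, 80335976 to 80341126, minus strand) had 3.63 and 2.81 CPM in CRNN, 4.47 and 2.55 CPM in GFP and 10.8 and 3.96 CPM in untreated libraries. SPRY4 (ENSG00000187678.8; chromosome 5, 142310427 to 142326455, minus strand) had 0.725 and 0.446 CPM in CRNN, 8.36 and 1.04 CPM in GFP and 9.13 and 1.601 CPM in untreated libraries. Its CRNN levels rest on 16 and 10 counts, against 161 and 13 in GFP and 239 and 40 in untreated libraries, so it is the least precisely measured of the genes and also the one with the largest difference between CRNN and GFP. SPRED1 (ENSG00000166068.8; chromosome 15, 38252836 to 38357249, plus strand) had 23.6 and 25.2 CPM in CRNN, 31.8 and 23.9 CPM in GFP and 39.0 and 25.3 CPM in untreated libraries. Its highest library was 1.65-fold above its lowest, the narrowest span of the 10 genes, while the span reached 20.5-fold for SPRY4 and 22.8-fold for DUSP5.

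ERRFI1, also called MIG6, binds the kinase domain of the epidermal growth factor receptor and blocks it, so it works at the top of the route. The gene (ENSG00000116285.8; chromosome 1, 8004404 to 8026309, minus strand) had 29.6 and 32.8 CPM in CRNN, 43.0 and 34.3 CPM in GFP and 537 and 35.3 CPM in untreated libraries. A single library, untreated replicate 1 with 14058 counts, set it apart, and the other 5 libraries lay within 29.6 to 43.0 CPM.

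ETV4 and ETV5 are transcription factors of the PEA3 group of the ETS family, which bind DNA around a GGAA core and serve as both targets and effectors of ERK signalling. ETV4 (ENSG00000175832.8; chromosome 17, 43527844 to 43579620, minus strand) had 9.61 and 9.36 CPM in CRNN, 26.3 and 6.54 CPM in GFP and 10.4 and 9.77 CPM in untreated libraries. ETV5 (ENSG00000244405.3; chromosome 3, 186046314 to 186110318, minus strand) had 8.34 and 7.85 CPM in CRNN, 32.1 and 5.75 CPM in GFP and 4.32 and 9.65 CPM in untreated libraries. Both were high in GFP replicate 1 and not in untreated replicate 1, where ETV5 had its lowest level of all 6 libraries. PHLDA1, a pleckstrin homology-like protein, (ENSG00000139289.9; chromosome 12, 76025447 to 76031776, minus strand) had 37.3 and 33.7 CPM in CRNN, 101 and 40.3 CPM in GFP and 124 and 48.4 CPM in untreated libraries. Both of its CRNN libraries lay below every control library.

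All 10 are protein coding. Of their GENCODE neighbours, SPRY4-AS1 had 1 to 9 counts, ETV5-AS1 0 to 3 and PHLDA1-AS1 0 to 5, each on the opposite strand. ETV4 shares 68 exonic bases with DHX8, a gene on the opposite strand with 1320 to 2723 counts, more than the 82 to 506 of ETV4. ETV5, with 72 to 619 counts, shares 164 with DGKG, on the same strand with 25 to 95 counts. DUSP6 shares 1105 and ERRFI1 155 exonic bases with long noncoding RNAs of the opposite strand that were not analysed here. The strand setting of the counting is not given in the sources used here, so reads in these stretches could not be assigned with certainty.

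Per kilobase of exon, which allows genes to be compared, DUSP5 had the highest and SPRY4 the lowest mean in every group. In the CRNN cells DUSP5 was highest at 8.96 ± 0.407 CPM per kilobase, followed by ERRFI1 at 7.47 ± 0.527 and PHLDA1 at 6.0005 ± 0.426 (SD, n = 2 for each). A step lower, SPRED1 stood at 3.15 ± 0.151, ETV4 at 2.70 ± 0.0501 and DUSP6 at 2.64 ± 0.130 CPM per kilobase, the last pair apart by less than the SD of DUSP6. DUSP4 (1.41 ± 0.109) and ETV5 (1.40 ± 0.0607) were likewise not separable, SPRY2 stood at 1.00 ± 0.180, and SPRY4 was lowest at 0.0893 ± 0.0302. In GFP cells DUSP5 led at 13.004 ± 9.89 CPM per kilobase, with PHLDA1 at 11.9 ± 7.24 and ERRFI1 at 9.25 ± 1.47, and these did not differ beyond their spread. In untreated cells the mean of DUSP5 was 74.8 ± 87.9 and that of ERRFI1 68.5 ± 84.9 CPM per kilobase, where the SD exceeds the mean because 1 of the 2 libraries carries nearly all of it.

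To show the sequence around transcription start of genes that were high in the same libraries and of one that was not, promoter windows were taken from RefSeq (GRCh38.p14), running from 250 bases before to 50 bases after a start. The table held 8 windows for 6 of the 10 genes, and DUSP4, DUSP5, ETV4 and ETV5 were not in it. DUSP6 and SPRY4 are shown because they were high in both control libraries that stood apart, and ERRFI1 because it was high in only one of them. The SPRY4 window lies inside the gene, downstream of its outermost annotated start at 142326455, unlike the windows of DUSP6 and ERRFI1. Capitals mark GGAA or its reverse complement TTCC, the core that ETS factors recognise.
DUSP6, chr12:89352452-89352751, minus strand: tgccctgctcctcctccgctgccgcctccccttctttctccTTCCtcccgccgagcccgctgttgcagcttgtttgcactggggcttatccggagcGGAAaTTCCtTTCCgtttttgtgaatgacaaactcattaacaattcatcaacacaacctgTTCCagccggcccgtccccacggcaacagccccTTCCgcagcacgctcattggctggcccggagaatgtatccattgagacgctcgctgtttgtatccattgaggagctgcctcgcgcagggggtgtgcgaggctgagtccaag
SPRY4, chr5:142324198-142324497, minus strand: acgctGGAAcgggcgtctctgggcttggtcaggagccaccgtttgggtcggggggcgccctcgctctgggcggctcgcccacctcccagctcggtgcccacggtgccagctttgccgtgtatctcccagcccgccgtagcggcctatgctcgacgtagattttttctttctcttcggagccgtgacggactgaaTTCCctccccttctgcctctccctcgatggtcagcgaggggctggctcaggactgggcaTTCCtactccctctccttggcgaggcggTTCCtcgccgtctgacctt
ERRFI1, chr1:8026260-8026559, minus strand: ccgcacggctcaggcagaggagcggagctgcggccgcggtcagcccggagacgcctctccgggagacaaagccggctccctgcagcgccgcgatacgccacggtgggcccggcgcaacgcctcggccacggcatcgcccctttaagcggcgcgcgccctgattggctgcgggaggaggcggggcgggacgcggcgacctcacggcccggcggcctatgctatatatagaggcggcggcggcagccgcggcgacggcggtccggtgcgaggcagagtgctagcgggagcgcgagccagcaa
DUSP6 held the core 6 times and SPRY4 4 times on either strand, and ERRFI1 did not hold it. Among the other windows, PHLDA1 held it 5 times, SPRED1 3 times and the 3 windows of SPRY2 between 3 and 5 times. GGAA is short and 95.5% of all 35116 windows of the same length contain it. Of the longer motifs searched on both strands, CCGGAAG for ETS factors was in 10.3% of all windows and TGACTCA for AP-1 in 4.95%, and 0 of the 8 windows held either. A match is only a match of letters, and the absence of one concerns these windows alone.

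Setting CRNN cells against GFP cells asks what the insert does beyond the virus. All 10 genes had a negative log2 fold change, where 50.1% of all tested genes did, and their median was -0.82 against -0.00 over all genes. The largest differences were those of SPRY4, with a log2 fold change of -3.02 (SE 1.05), DUSP4 with -1.36 (SE 0.77), ETV5 with -1.24 (SE 0.68) and PHLDA1 with -0.99 (SE 0.51; n = 2 per group). SPRY2 had -0.14 (SE 0.51) and SPRED1 -0.19 (SE 0.30). None of the 10 passed at an adjusted p of 0.05 by edgeR's quasi-likelihood test, which called 0.0183% of all genes in either direction, and each had an adjusted p of 0.999. At an unadjusted edgeR p under 0.05, 1 of the 10 was lower, SPRY4, where 2.9% of all genes were lower, 1.49% higher and 4.39% either. DESeq2 and limma-voom called 0 of the 10.

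The libraries of CRNN and GFP did not overlap for 3 of the 10 genes, SPRY4, ERRFI1 and PHLDA1, all lower in CRNN. Of all genes, 18.7% were lower and 19.4% higher without overlap. For the other 7, GFP replicate 2 lay within or below the CRNN pair. The direction of the median and of DUSP5, DUSP6, SPRY2, SPRED1, ETV4 and ETV5 therefore hung on GFP replicate 1. Without it the median of the 10 was 0.19 and 4 of 10 values stayed negative, among them SPRY4 at -0.81 and PHLDA1 at -0.18, while DUSP5 was at 0.58, DUSP6 at 0.56, ETV4 at 0.54 and ETV5 at 0.50. Without GFP replicate 2 the median was -1.46 and 10 of 10 were negative. None passed in either case, with smallest adjusted p values of 0.839 and 0.546 by edgeR.

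**Figure D2:**
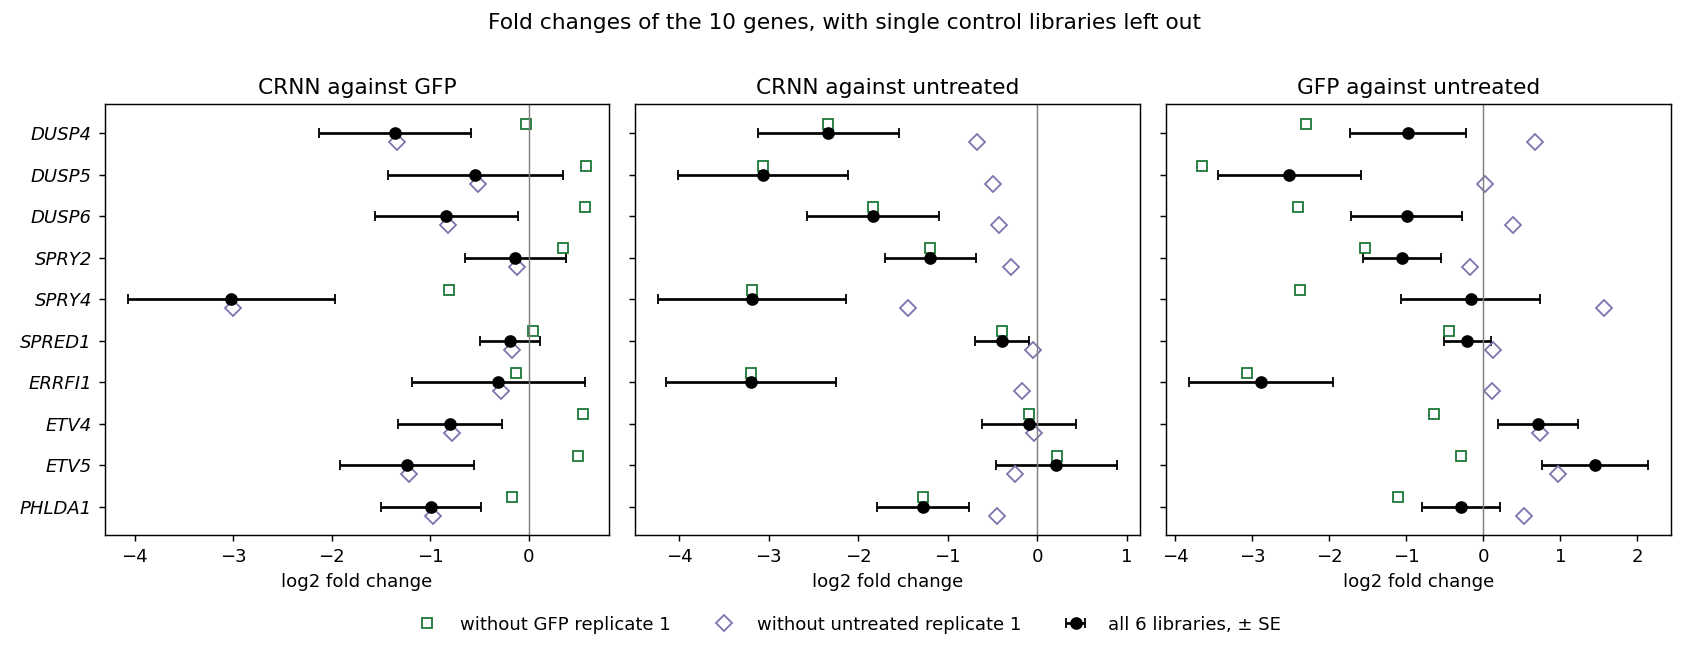
Log2 fold change of the 10 genes in each comparison. Filled points with bars are the values from all 6 libraries ± SE, green squares those without GFP replicate 1 and purple diamonds those without untreated replicate 1. In CRNN against GFP the squares move to or past 0 for most genes, SPRY4 staying at -0.81; in CRNN against untreated the diamonds lie nearer to 0 than the points for 9 genes, and that of ETV5 crosses from 0.21 to -0.25.

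Against untreated cells, the effect of the virus is included as well. Here 9 of 10 genes were lower in CRNN, all but ETV5, where 50.9% of all genes had a negative and 49.1% a positive value, and the median was -1.56 against -0.01 over all genes. ERRFI1 had a log2 fold change of -3.20 (SE 0.95), SPRY4 of -3.19 (SE 1.05), DUSP5 of -3.06 (SE 0.95), DUSP4 of -2.33 (SE 0.79) and DUSP6 of -1.83 (SE 0.74; n = 2 per group). PHLDA1 had -1.28 (SE 0.51) and SPRY2 -1.19 (SE 0.50), while SPRED1 at -0.40 (SE 0.30) and ETV4 at -0.09 (SE 0.52) differed little and ETV5 had 0.21 (SE 0.68). None passed by edgeR, with a smallest adjusted p of 0.989, where 0.0061% of all genes were called. At an unadjusted p under 0.05, 7 of 10 were lower, against 2.96% of all genes lower, 1.52% higher and 4.48% either: DUSP4, DUSP5, DUSP6, SPRY2, SPRY4, ERRFI1 and PHLDA1. DESeq2 and limma-voom called 0 of the 10.

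Both CRNN libraries lay below both untreated libraries for 9 of the 10 genes, where 18.4% of all genes were lower without overlap. For SPRED1 and ETV4 the gap was small, 25.2 against 25.3 CPM and 9.61 against 9.77 CPM between the nearest libraries. Untreated replicate 1 set much of the size of the differences and the sign of ETV5, which was -0.25 without it. Without that library 10 of 10 were negative with a median of -0.37, SPRY4 being farthest at -1.44, followed by DUSP4 at -0.67 and DUSP5 at -0.50, and ERRFI1 standing at -0.17. None had an unadjusted p under 0.05 in that fit, in which the lone untreated library is assumed to vary like the other groups. Without untreated replicate 2 the median was -2.16, and the 7 genes named above passed, with adjusted p values between 1.13e-04 for ERRFI1 and 0.0392 for PHLDA1 (edgeR). That fit called 957 of 17739 genes, or 5.39%, of which 620 were lower in CRNN, or 3.5%.

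The comparison of GFP with untreated cells shares libraries with both others, so its values are given beside theirs and not as separate evidence. Of the 10 genes 8 were lower in GFP, where 51.1% of all genes had a negative and 48.9% a positive value, with a median of -0.63 against -0.01 over all genes. ERRFI1 had a log2 fold change of -2.89 (SE 0.94) and DUSP5 of -2.52 (SE 0.93), while ETV5 had 1.45 (SE 0.68) and ETV4 0.71 (SE 0.53). None passed (smallest adjusted p 0.711, edgeR), 2 were lower at an unadjusted p under 0.05, against 2.9% of all genes lower, 4.03% higher and 6.93% either, and DESeq2 and limma-voom called 0 of the 10. In 0 of 10 did the libraries of GFP and untreated cells separate, whereas 15.5% of all genes were lower and 16.2% higher without overlap. The median was 0.45 without untreated replicate 1, with 1 of 10 negative, and -1.92 without GFP replicate 1, with 10 of 10 negative. Without untreated replicate 2, DUSP5, SPRY2 and ERRFI1 passed, with adjusted p values of 0.00377, 0.0337 and 1.88e-04 (edgeR), in a fit that called 966 of 17739 genes, or 5.45%.

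Since the groups differed mostly through single libraries, the replicates of each group were set side by side. The intervals that follow are exact 95% intervals for counting error only, and a ratio between single libraries carries no test. In the CRNN pair 0 of 10 differed by 2-fold, where 5.71% of all genes were that much higher and 0.89% lower in replicate 1, and the median ratio of replicate 1 over replicate 2 was 1.07. In the GFP pair 7 of 10 were at least 2-fold higher in replicate 1, where 8.51% of all genes were and 7.36% were that much lower, with a median ratio of 3.65. In the untreated pair 7 of 10 were at least 2-fold higher in replicate 1, against 8.85% of all genes, with a median ratio of 3.49, and 1, ETV5, was at least 2-fold lower, against 11.1%.

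The genes did not order alike in these pairs. In the GFP pair SPRY4 differed most, with a ratio of 8.06 (interval 4.58 to 15.5), followed by ETV5 at 5.59 (4.38 to 7.24), DUSP6 at 4.23 (3.37 to 5.36), ETV4 at 4.02 (3.17 to 5.13) and DUSP4 at 3.98 (3.31 to 4.82). ERRFI1 differed least, at 1.25 (1.11 to 1.41). In the untreated pair ERRFI1 differed most, at 15.2 (14.2 to 16.3), and DUSP5 next, at 10.8 (10.1 to 11.6). SPRY4 stood at 5.70 (4.07 to 8.18), DUSP4 at 5.32 (4.79 to 5.92) and DUSP6 at 4.27 (3.79 to 4.81), while ETV4 was at 1.07 (0.895 to 1.27) and ETV5 at 0.447 (0.355 to 0.562). DUSP6 and PHLDA1 thus had nearly the same ratio in both pairs, PHLDA1 at 2.502 and 2.56, whereas ERRFI1 and the ETV genes stood at opposite ends.

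**Figure D3:**
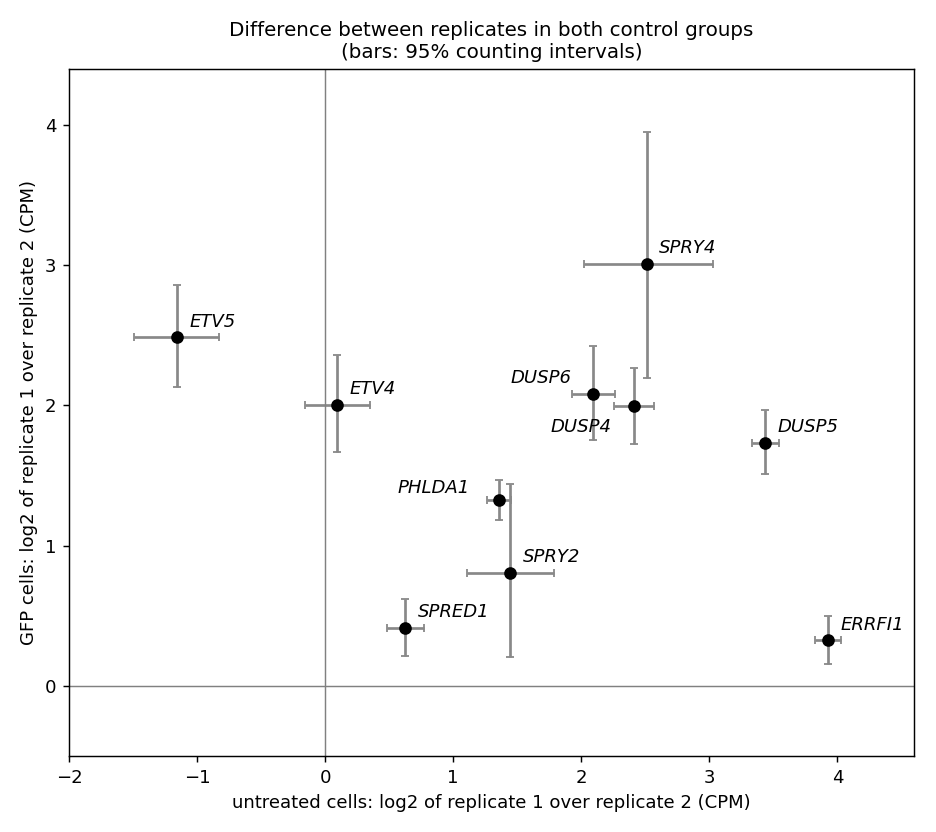
Log2 ratio of replicate 1 over replicate 2 (CPM) in the untreated cells (x axis) and in the GFP cells (y axis) for the 10 genes, with 95% counting intervals. ERRFI1 lies at the far right near the bottom, ETV5 and ETV4 at the upper left, and DUSP4, DUSP6 and SPRY4 are high on both axes.

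Libraries differed in base composition too. Across 11532 genes with a value, which are not independent replicates, the level in GFP replicate 1 relative to the other libraries followed GC content with a Spearman rho of 0.626, against -0.0759 in untreated replicate 1. GFP replicate 2 had the opposite trend on GC content, with a rho of -0.381, and a rho of 0.407 on length. The longest transcripts of the 10 genes had a median GC content of 48.4%, from 36.3% in SPRED1 to 60.6% in ETV4, close to the 48.2% of all tested genes. With each library's trend on GC content and length removed, the medians were -0.83 for CRNN against GFP, -1.51 for CRNN against untreated and -0.49 for GFP against untreated.

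Upstream of these genes, some ligands of the route were high in the same libraries, while EGFR was not. Of 15 ligands and receptors listed, 12 were tested; 0 passed in either direction in any comparison (edgeR), and their medians were -0.35 for CRNN against GFP and -0.58 for CRNN against untreated. Without GFP replicate 1 the median against GFP was -0.10, and without untreated replicate 1 that against untreated cells was -0.01. EREG, a ligand of the epidermal growth factor receptor, had 10.1 and 12.8 CPM in CRNN, 33.4 and 13.1 CPM in GFP and 90.9 and 6.01 CPM in untreated libraries. HBEGF, another ligand, had 2.22 and 3.08 CPM in CRNN, 8.72 and 2.23 CPM in GFP and 64.2 and 2.52 CPM in untreated libraries. FGF2, a ligand of the fibroblast growth factor receptors, had 7.57 and 9.63 CPM in CRNN, 5.82 and 8.46 CPM in GFP and 36.2 and 10.8 CPM in untreated libraries, so it was lowest in GFP replicate 1. The receptor EGFR varied little, with 685 and 649 CPM in CRNN, 784 and 872 CPM in GFP and 737 and 651 CPM in untreated libraries. The 19 genes of the cascade from adaptors to ERK, all tested, had medians of -0.05 and -0.01 in the same comparisons, or -0.09 and 0.05 without replicate 1 of the control in question, with 0 called.

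Among other outputs of ERK, several but not all were high in the same libraries. Of 15 listed, 14 were tested and 0 passed. In CRNN against GFP 10 of 14 were negative, where 50.1% of all genes were, with a median of -0.31, and in CRNN against untreated 11 of 14, where 50.9% were, with a median of -0.63. Without GFP replicate 1 the first median was 0.26 with 3 of 14 negative, and without untreated replicate 1 the second was -0.05 with 7 of 14 negative. FOSL1, a subunit of AP-1, had 38.4 and 31.6 CPM in CRNN, 241 and 30.2 CPM in GFP and 636 and 37.8 CPM in untreated libraries. EPHA2, an ephrin receptor, had 83.1 and 70.5 CPM in CRNN, 277 and 89.1 CPM in GFP and 513 and 93.0 CPM in untreated libraries. EGR1, an immediate early transcription factor, had 7.93 and 8.29 CPM in CRNN, 16.3 and 12.5 CPM in GFP and 12.8 and 7.49 CPM in untreated libraries, so it did not stand out in untreated replicate 1. CCND1, the G1 cyclin D1, had 134 and 136 CPM in CRNN, 328 and 183 CPM in GFP and 348 and 188 CPM in untreated libraries, so both CRNN libraries lay below all 4 control libraries. Its log2 fold change was -0.92 (SE 0.39) over GFP and -0.99 (SE 0.39) over untreated cells, with adjusted p values of 0.999 and 0.989 (edgeR, n = 2 per group). It was -0.43 over GFP without GFP replicate 1 and -0.48 over untreated cells without untreated replicate 1.

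Of 14 other feedback genes 12 were tested and 0 passed, with medians of -0.19 in CRNN against GFP and -0.13 against untreated cells, or -0.05 and -0.01 without replicate 1 of the control in question. SPRED2, a relative of SPRED1, had 9.93 and 9.23 CPM in CRNN, 19.0 and 10.8 CPM in GFP and 12.3 and 10.4 CPM in untreated libraries. NF1, the RAS-inactivating partner of SPRED1, had 105 and 87.7 CPM in CRNN, 127 and 157 CPM in GFP and 108 and 110 CPM in untreated libraries. DUSP9, a cytoplasmic ERK phosphatase, went the other way, with 2.09 and 1.78 CPM in CRNN, 1.40 and 1.20 CPM in GFP and 1.03 and 0.881 CPM in untreated libraries. Of 17 other ETS factors 14 were tested and 0 passed, with medians of -0.24 against GFP and -0.27 against untreated cells, or -0.42 and 0.12 without replicate 1 of the control in question. ELF3, an epithelial ETS factor, had 107 and 121 CPM in CRNN, 35.3 and 84.2 CPM in GFP and 77.0 and 86.5 CPM in untreated libraries, with both CRNN libraries above all 4 control libraries. Its log2 fold change over GFP was 0.94 (SE 0.39), with an adjusted p of 0.999 (edgeR). ETV1, the third member of the PEA3 group, had only 0.635 and 0.535 CPM in CRNN, 1.35 and 1.04 CPM in GFP and 0.420 and 0.480 CPM in untreated libraries. Like ETV4 and ETV5 it was highest in GFP replicate 1 and not high in untreated replicate 1. Unlike theirs, its level in GFP replicate 2 also lay above every CRNN and untreated library. That level rests on few counts, 3 counts being worth 0.239 CPM in that library, so the contrast is imprecise. Of 6 other MAPK phosphatases 5 were tested and 0 passed, with medians of -0.13 against GFP and -1.83 against untreated cells, or 0.57 and 0.20 without replicate 1 of the control in question. DUSP1, a nuclear phosphatase of the stress kinases and ERK, had 3.08 and 3.52 CPM in CRNN, 4.93 and 2.23 CPM in GFP and 28.4 and 2.88 CPM in untreated libraries.

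**Figure D4:**
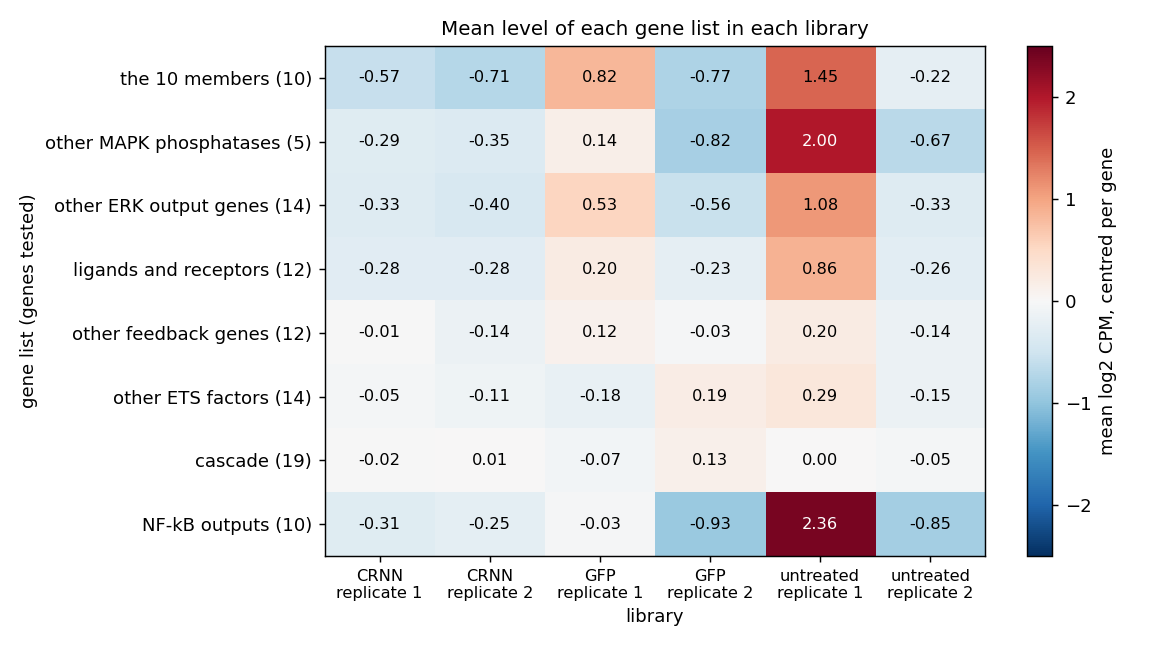
Mean log2 CPM, centred per gene over the 6 libraries, of the 10 genes and 7 other lists (rows, with the number of genes tested) in each library (columns). The 10 genes stand at 0.82 in GFP replicate 1 and 1.45 in untreated replicate 1, while NF-kB outputs stand at -0.03 and 2.36 in these libraries and the cascade genes within 0.13 of 0 in all 6.

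Untreated replicate 1 was high in more than ERK outputs. The NF-kB output genes, 10 of 10 tested, had a mean centred level of 2.36 there, against -0.03 in GFP replicate 1. TNFAIP3, a brake on NF-kB signalling, had 9.29 and 8.29 CPM in CRNN, 14.96 and 9.02 CPM in GFP and 291 and 5.32 CPM in untreated libraries. Untreated replicate 1 raises the mean used for centring, which shifts all libraries alike and leaves their order unchanged. The list's level in GFP replicate 1 was above those of the other 4 libraries. These stood at -0.31 and -0.25 in CRNN, -0.93 in GFP replicate 2 and -0.85 in untreated replicate 2. Single genes differed: TNFAIP3 and IL6 were higher in GFP replicate 1 than in both CRNN libraries, while CXCL1 and BIRC3 were lower. CXCL1 was low throughout these, at 0.675 CPM there against 1.27 and 2.54 CPM. CXCL2, at 0.779 against 0.680 and 0.535 CPM, and CXCL8, at 1.09 against 1.31 and 1.47 CPM, differed little. The summed level of the list was 152 and 160.4 CPM in CRNN, 190.2 and 122 CPM in GFP and 732 and 116 CPM in untreated libraries. The list's median for CRNN against untreated was -1.98, and 0.54 without untreated replicate 1. For CRNN against GFP it was 0.02, and 0.35 without GFP replicate 1.

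Among all other named genes, the 5 whose centred log2 CPM over the 6 libraries came nearest to the mean of the 10, by root mean square difference, were SYTL3 (0.12), BCL2L1 (0.16), OVOL1 (0.16), DKK1 (0.19) and MAP3K9 (0.19). DKK1, a secreted inhibitor of Wnt signalling, had 183 and 200 CPM in CRNN, 379 and 161 CPM in GFP and 799.997 and 222 CPM in untreated libraries. BCL2L1, which encodes the survival protein BCL-XL, had 34.5 and 34.5 CPM in CRNN, 85.0 and 32.1 CPM in GFP and 112 and 39.2 CPM in untreated libraries. Of the 10 genes PHLDA1 lay nearest to their own mean (0.17) and ETV5 farthest (1.14).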

How the data were processed

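Total RNA of 6 Cal27 libraries was measured by stranded RNA sequencing. The authors deposited raw counts per versioned Ensembl gene, as whole numbers without normalization. Per the submitters' processing notes, the tools include STAR 2.6 and HTSeq 0.6.1, with FastQC 0.11.7, bcl2fastq and edgeR, and more than one genome build is named; annotation, strand setting and the role of each are not given in the sources used here.

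Names, positions, lengths and GC content came from GENCODE 44 (GRCh38) by identifier without version; 51996 of 57820 identifiers matched. Genes were kept by edgeR's filterByExpr (minimum count 10, minimum total 15). One model of the 3 groups over the 6 libraries (R 4.3.3, edgeR 4.0.16, TMM, no covariate) gave quasi-likelihood F tests, adjusted over 16396 genes by Benjamini and Hochberg and called at 0.05. The SE is the log2 fold change divided by the square root of F. Centred levels are log2 CPM with a prior count of 2. With 2 libraries per group an exact permutation test could not give less than p = 0.333. The labels do not say that replicates came from separate cultures, so p-values measure only the spread between these libraries, which may be technical.

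The procedure was run on simulated counts in which no library was made to stand apart, so that run does not cover this feature of the data. Alternatives were RLE, upper-quartile and no scaling factors, other filters, DESeq2 1.42.0, limma-voom (limma 3.58.1), a replicate block, fits restricted to the groups of one comparison, correction for GC and length (splines with 4 degrees of freedom; 97.2% of tested genes had values) and each library left out. The GGAA search and the list medians with a library left out were added after the data were seen. Members, lists and rules (named genes: the members, CRNN, up to 3 genes per list with the smallest p against each control, the 5 nearest profiles) were chosen with earlier results of these data known.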

Additional observations from a re-analysis of the deposited data

How the results depend on the processing

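Over RLE, upper-quartile and library-total scaling, a filter of 1 CPM in 2 libraries, DESeq2, limma-voom, fits of 2 groups alone and removal of GC and length trends, 0 of the 10 genes passed in any comparison. Without a filter, 1 passed for CRNN against GFP (SPRY4), 4 for CRNN against untreated (DUSP4, DUSP5, SPRY4 and ERRFI1) and 2 for GFP against untreated (DUSP5 and ERRFI1). Over all 33425 genes of that fit, 34, 152 and 195 were called in these comparisons, in the same order. Upper-quartile factors turned SPRY4 for GFP against untreated to 0.012. The median replicate ratio was 0.994 in CRNN with library totals, and in untreated cells 3.14 with upper-quartile factors and 3.17 with totals.

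With 1 library left out at a time, a lone library being assumed to vary like the other groups, the number of genes that passed lay between 0 and 0 for CRNN against GFP, 0 and 7 for CRNN against untreated and 0 and 3 for GFP against untreated. The median lay between -1.46 and 0.19 for CRNN against GFP, -2.16 and -0.37 for CRNN against untreated and -1.92 and 0.45 for GFP against untreated. For CRNN against GFP the values of single genes that turned lay between -1.13 and 0.58 for DUSP5, -1.50 and 0.56 for DUSP6, -0.45 and 0.34 for SPRY2, -0.36 and 0.041 for SPRED1, -1.45 and 0.54 for ETV4 and -1.97 and 0.50 for ETV5. For CRNN against untreated the values of single genes that turned lay between -0.25 and 0.91 for ETV5. For GFP against untreated the values of single genes that turned lay between -2.30 and 0.66 for DUSP4, -3.65 and 0.021 for DUSP5, -2.40 and 0.38 for DUSP6, -2.37 and 1.56 for SPRY4, -0.50 and 0.12 for SPRED1, -3.81 and 0.11 for ERRFI1, -0.63 and 1.36 for ETV4, -0.29 and 2.18 for ETV5 and -1.10 and 0.52 for PHLDA1.

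Without replicate 1 of both GFP and untreated cells the median for CRNN against GFP was 0.19, with DUSP5 at 0.58, DUSP6 at 0.56, SPRY2 at 0.34, SPRED1 at 0.039, ETV4 at 0.54 and ETV5 at 0.50. For CRNN against untreated that fit gave a median of -0.37 with 10 of 10 negative. SPRY4 was at -1.44, DUSP4 at -0.67, DUSP5 at -0.50 and ETV5 at -0.25. For GFP against untreated it put ETV4 at -0.58 and ETV5 at -0.75. The cause was not tested.

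A fit with the replicate number as a block let 0 of the 10 pass in each comparison, with medians of -0.50 for CRNN against GFP, -1.24 for CRNN against untreated and -0.58 for GFP against untreated. With GC and length trends removed as well, the block gave medians of -0.54, -1.23 and -0.56. The deviations of same-numbered libraries correlated at 0.255 for CRNN and GFP, -0.0707 for CRNN and untreated, and 0.193 for GFP and untreated cells, which did not pass 0.1 in every pair, and the labels do not say what the numbers mark, so they were not used as pairs.

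Over all genes, 3 were called for CRNN against GFP, with 34 without a filter, 22 by DESeq2, 13 in a fit of those groups alone, 1 with GC and length trends removed with or without the block, 0 without either GFP library, 13 and 15 without untreated replicate 1 and 2, and 1040 without replicate 1 of both GFP and untreated cells. For CRNN against untreated 1 was called, with 152 without a filter, 7 by DESeq2, 4 and 957 without untreated replicate 1 and 2, and 127 without replicate 1 of both. For GFP against untreated edgeR called 0 (1137 had an unadjusted p under 0.05), and there were 195 without a filter, 29 by DESeq2, 966 without untreated replicate 2 and 142 without replicate 1 of both. Depth limits SPRY4 most, at 16 and 10 counts in CRNN.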
